A study of Mus musculus with 29 samples.

Results

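A set of transcription factor ChIP-seq experiments had dense peaks over the first 8 Mb of known sequence on mouse chromosome 5. This stretch, the block, runs from 3 to 11 Mb on mm10 (GRCm38). Among 333 adjoining windows of 8 Mb, laid out from 3 Mb on each chromosome, it had the highest pooled peak density. The members described here are all peaks of all 28 peak lists whose midpoint fell between positions 3000000 and 11000000, and the block was chosen by its peak density in these same lists. It held 5024 of the 304922 peaks (1.65%) on 0.302% of the known bases of the genome, and 22.1% of the chromosome 5 peaks on 5.41% of the bases of that chromosome. Because density chose the block, densities are given as a description without a test, and tests were run only on peak width, promoter position, base composition and sequence content.

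Each list came from NIH-3T3 cells, an established mouse fibroblast line, that carried a lentiviral transgene for a factor with 3 HA tags at its C-terminus. Doxycycline at 500 ng/ml switched expression on overnight, and chromatin crosslinked in 1% formaldehyde was precipitated with an anti-HA antibody. The lists belong to 24 constructs, of which 21 are wild-type factors (BHLHB8-HA, BRACHYURY-HA, CDX2-HA, DLX1-HA, DLX6-HA, DUXBL-HA, EBF1-HA, FOXA1-HA, HLF-HA, MAX-HA, NANOG-HA, OCT4-HA, PRR3-HA, RHOX11-HA, SIX6-HA, SOX15-HA, SOX2-HA, TEAD1-HA, THAP4-HA, TOX3-HA and ZFP319-HA), 2 are FOXA1 mutants (FOXA1_RR-HA and FOXA1_SW-HA), and the last is OCT4-HA in cells that also expressed SOX2-YPET, named SOX2-YPET OCT4-HA below. There were 2 lists each for SOX2-HA, OCT4-HA, BHLHB8-HA and FOXA1-HA. All cells shared the parental line, the induction and the antibody, so each list describes an overexpressed factor in a fibroblast background. The size of the lists ran from 52 to 61991 peaks, and the files carry neither scores nor read numbers, so the sequencing depth behind a list is unknown.

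A transcription factor recognises a short DNA sequence, but in a given cell type it occupies only some of the copies of that sequence, mostly where chromatin is open. In fibroblasts, AP-1 dimers of FOS and JUN proteins sit at many distal enhancers and help keep them accessible, so the AP-1 heptamer is common under the peaks of unrelated factors. The block carries genes of cell cycle control, of lipid and drug transport and of metal reduction, separated by long stretches without protein-coding genes.

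The sequences that show what the shared sites of the block look like are the reference bases at 4 of its 5 most widely shared sites, taken where the peaks of most constructs lay over each other. A site is a run of touching peaks of any list. Capitals mark a match, on either strand, to the AP-1 heptamer (TGACTCA or TGAGTCA) or to the consensus of a construct with a peak at the site. Each window is 200 bases long, on the + strand of GRCm38. The site ranked 1, which lay over an exon of the processed pseudogene Wdr46-ps inside Akap9, is not printed.

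Site 2, chr5:6192384-6192583, between genes, under peaks of 13 constructs: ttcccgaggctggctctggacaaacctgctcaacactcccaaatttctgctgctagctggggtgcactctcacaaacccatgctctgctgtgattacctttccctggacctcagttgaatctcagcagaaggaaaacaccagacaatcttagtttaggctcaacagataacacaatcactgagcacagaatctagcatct
Site 3, chr5:4788562-4788761, in an intron of the long non-coding RNA Gm42744, under 10 constructs: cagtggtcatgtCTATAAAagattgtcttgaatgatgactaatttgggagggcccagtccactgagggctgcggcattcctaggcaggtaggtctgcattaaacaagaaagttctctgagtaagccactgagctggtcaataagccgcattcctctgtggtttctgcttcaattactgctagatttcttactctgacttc
Site 4, chr5:5175295-5175494, in an intron of Cdk14, under 12 constructs: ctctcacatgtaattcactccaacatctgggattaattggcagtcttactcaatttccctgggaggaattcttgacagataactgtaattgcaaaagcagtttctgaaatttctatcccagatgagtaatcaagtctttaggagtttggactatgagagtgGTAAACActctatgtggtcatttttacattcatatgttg
Site 5, chr5:7623253-7623452, between genes, under 10 constructs: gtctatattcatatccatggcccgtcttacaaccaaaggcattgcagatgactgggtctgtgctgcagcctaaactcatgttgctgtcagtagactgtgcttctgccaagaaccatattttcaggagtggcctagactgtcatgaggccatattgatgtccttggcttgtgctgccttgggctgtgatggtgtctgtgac

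The windows at sites 2 and 5 held no AP-1 heptamer and no match to any consensus that was searched for the constructs present there. The match in the window at site 3 was to the CDX2 form TTTATNG, and that at site 4 was to the forkhead form TGTTTAC (searched as TATTTAC or TGTTTAC). In these windows many constructs thus had peaks over the same bases, with few exact matches to the forms searched. RHOX11-HA, THAP4-HA and TOX3-HA, present at site 2 or 5, had no searched consensus. Among all 200 bp windows of the block, a single form occurred in 0.22% (DUXBL-HA) to 14.2% (CDX2-HA). Whether the shared sites held fewer matches than other windows was not tested.

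Other peaks of the block carried the recognition sequence of their factor several times. The next windows are the centres of the block peaks with the most matches to their own consensus in 4 lists, among peaks away from promoters and annotated exons, and capitals mark these matches.

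DLX6-HA, chr5:6570485-6570684, between genes, 4 matches to TAATTA: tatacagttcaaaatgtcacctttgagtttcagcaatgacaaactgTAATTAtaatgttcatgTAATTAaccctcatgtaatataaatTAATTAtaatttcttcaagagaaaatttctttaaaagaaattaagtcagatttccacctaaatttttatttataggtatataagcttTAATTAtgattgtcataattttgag
CDX2-HA, chr5:9425577-9425776, in an intron of 9330182L06Rik, 5 matches to TTTATNG: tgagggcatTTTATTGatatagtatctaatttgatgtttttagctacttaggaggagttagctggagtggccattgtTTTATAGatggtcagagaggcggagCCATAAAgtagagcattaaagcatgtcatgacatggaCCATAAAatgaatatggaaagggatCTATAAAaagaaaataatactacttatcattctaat
BHLHB8-HA replicate 2, chr5:3116645-3116844, between genes, 2 matches to CAGCTG: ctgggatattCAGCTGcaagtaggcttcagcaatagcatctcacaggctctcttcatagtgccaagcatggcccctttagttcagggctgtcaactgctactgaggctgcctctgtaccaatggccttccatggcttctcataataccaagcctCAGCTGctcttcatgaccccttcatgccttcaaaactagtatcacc
HLF-HA, chr5:8536111-8536310, in an intron of Rundc3b, 2 matches to TTACATAA or TTACGTAA: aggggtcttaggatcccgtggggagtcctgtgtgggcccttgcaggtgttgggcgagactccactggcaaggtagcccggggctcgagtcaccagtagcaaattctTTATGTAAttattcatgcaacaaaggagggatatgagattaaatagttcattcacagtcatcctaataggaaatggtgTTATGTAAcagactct

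Pooled over the lists, the block held 628 peaks per Mb, against 126 in the rest of chromosome 5 and 114 in the rest of the genome, a 4.97-fold and a 5.53-fold higher density. When the genome was divided into 333 windows of 8 Mb, the block ranked 1, and the window with the next highest density had 380 peaks per Mb. These windows adjoin and start at 3 Mb on each chromosome, where the block starts. The block thus fills 1 window, while other dense stretches may be split between windows. The pooled density was spread over the whole block, since all 8 of its 1 Mb bins passed 2 times the median bin of the genome (90 peaks per Mb), as did 23.6% of all bins. These 8 bins had between 507 and 766 peaks and ranked between 3 and 14 among 2660 bins. The 3 lists with the most peaks in the block, BHLHB8-HA replicate 2, SOX2-YPET OCT4-HA and RHOX11-HA, held 47.9% of its peaks. Without these 3 lists, 2616 peaks remained in the block, at 327 per Mb against 99.2 in the rest of the chromosome, which is 3.30-fold.

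A density above that of the rest of chromosome 5 was present in nearly all lists but differed widely in size. Of the 28 lists, 27 had at least 1 peak in the block, and 20 lists of 17 constructs had at least 20 and held 4972 of the 5024 peaks. PRR3-HA had 0 of 62 peaks there, which allows a share of up to 4.84% at 3 counts (upper bound of the exact interval 5.78%). Relative to the rest of chromosome 5, the fold over the 20 lists had a median of 3.53 and ran from 1.42 for EBF1-HA to 93.4 for SOX2-YPET OCT4-HA. Against the rest of the genome the median was 3.80, with a range from 1.82 to 56.6. Ranked in each list alone among the 333 windows, the block was 1 in 9 of these 20 lists and within the top 3 in 12. Its lowest rank was 48, in EBF1-HA. In DUXBL-HA all 8 block bins passed 2 times the mean bin of that list, as did 7.18% of all bins. In MAX-HA 3 of the 8 passed (21.7% of all bins), and in EBF1-HA 4 (18.6%). Folds are given below with 95% exact intervals. These, like all intervals on shares given here, reflect the number of peaks counted and leave out how libraries vary.

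**Figure D1:**
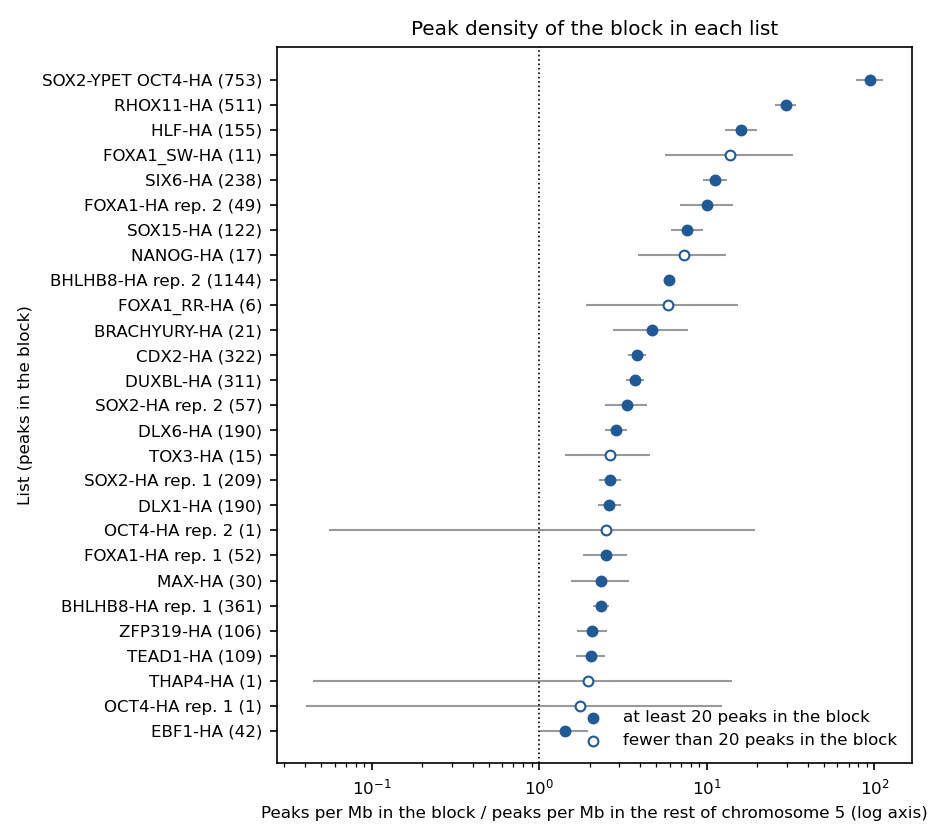
Peaks per Mb in the block divided by peaks per Mb in the rest of chromosome 5, on a log axis, for the 27 lists with at least 1 peak in the block. Points are the ratios and bars their 95% exact intervals (counting error only), open points have fewer than 20 block peaks, and the dotted line marks equal density. SOX2-YPET OCT4-HA (93.4) and RHOX11-HA (29.5) stand to the right of all other lists, and EBF1-HA (1.42) lies lowest.

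SOX2-YPET OCT4-HA had 753 of its 5146 peaks in the block (14.6%), 93.4-fold more per Mb than in the rest of the chromosome (95% interval 77.9 to 113). OCT4 is a POU factor that binds together with SOX2 in pluripotent cells. OCT4-HA expressed without SOX2-YPET gave lists of only 95 and 52 peaks, with 1 peak in the block in each. RHOX11-HA, a reproductive homeobox factor, had 511 of 4579 peaks in the block (11.2%), 29.5-fold (25.5 to 34.1). HLF-HA, a PAR bZIP factor, had 155 of 2635 (5.88%), 15.9-fold (12.7 to 19.9). The homeobox factor SIX6-HA reached 11.2-fold (9.47 to 13.2) with 238 peaks, and SOX15-HA reached 7.59-fold (6.09 to 9.42) with 122.

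Lower folds, with at least 30 block peaks in the list, were found for the following factors. CDX2-HA, a caudal homeobox factor, had 322 peaks in the block at 3.83-fold (3.38 to 4.32), and DUXBL-HA, a double homeobox factor, had 311 at 3.74-fold (3.30 to 4.23). DLX6-HA and DLX1-HA, distal-less homeobox factors, had 190 peaks each, at 2.87-fold (2.45 to 3.35) and 2.62-fold (2.24 to 3.05). TEAD1-HA, the DNA-binding partner of YAP and TAZ, had 109 peaks at 2.03-fold (1.65 to 2.47), and ZFP319-HA had 106 at 2.06-fold (1.67 to 2.52). MAX-HA, the E-box partner of MYC, had 30 at 2.34-fold (1.54 to 3.44). EBF1-HA had 42 at 1.42-fold, with an interval (1.01 to 1.95) that came close to equal density. Of the 20 lists, 12 stayed below 4-fold and 8 lay at 4-fold or above. Lists with fewer than 20 block peaks did not all have low folds, but their intervals are wide. FOXA1_SW-HA had 11 of its 147 peaks in the block, 13.7-fold (5.65 to 32.6). NANOG-HA had 17 of 396, 7.25-fold (3.86 to 13.0), and FOXA1_RR-HA 6 of 151, 5.83-fold (1.89 to 15.3). TOX3-HA had 15 of 1286, 2.65-fold (1.43 to 4.59). OCT4-HA replicates 1 and 2 and THAP4-HA had 1 block peak each.

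Duplicates of the same factor differed as much as many pairs of factors did. The 2 BHLHB8-HA lists, of a basic helix-loop-helix factor, had 361 peaks at 2.34-fold (2.09 to 2.61) and 1144 peaks at 5.93-fold (5.54 to 6.35). FOXA1-HA, a pioneer forkhead factor, had 52 peaks at 2.48-fold (1.82 to 3.33) in replicate 1 and 49 at 9.97-fold (6.87 to 14.3) in replicate 2. SOX2-HA had 209 at 2.64-fold (2.27 to 3.05) and 57 at 3.31-fold (2.45 to 4.41), whose intervals overlap. The ratios between the duplicates were 2.54 for BHLHB8-HA, 4.01 for FOXA1-HA and, for the pair with overlapping intervals, 1.26. Within these 3 pairs of duplicates, the pooled SD of log2 fold was 0.99, and the SD over all 20 lists was 1.51. Differences between single lists of about 2-fold therefore lie within the spread between duplicates, which rests on only 3 pairs. The folds of SOX2-YPET OCT4-HA and RHOX11-HA stood furthest from the median list (3.53-fold). HLF-HA (15.9), SIX6-HA (11.2), FOXA1-HA replicate 2 (9.97) and SOX15-HA (7.59) also lay more than 2-fold above it, and EBF1-HA (1.42) more than 2-fold below. Whether the number of reads behind each list moved with these folds was not tested.

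Lists also differed in where in the block their peaks lay. The 3 bins with the lowest GC content, those starting at 6, 7 and 10 Mb (37.5 to 38.1% GC), make up 37.5% of the block and were set apart after the values were seen, so their shares are a description. RHOX11-HA had 62.0% of its block peaks there (exact interval 57.7 to 66.3), with 100 to 110 peaks in each of these bins and 33 to 47 in each of the other 5. SIX6-HA had 54.2% there (47.6 to 60.7), HLF-HA 51.0% (42.8 to 59.1) and SOX15-HA 48.4% (39.2 to 57.6). BHLHB8-HA replicate 1 had 22.7% (18.5 to 27.4), SOX2-HA replicate 1 had 17.2% (12.4 to 23.0) and MAX-HA 10.0% (2.11 to 26.5). DUXBL-HA was even along the block at 37.6% (32.2 to 43.3), with 34 to 43 peaks in every bin. The FOXA1-HA duplicates fell on opposite sides, at 25% (14.03 to 38.9) and 57.1% (42.2 to 71.2). BHLHB8-HA replicate 2, at 29.3% (26.7 to 32.0), was closer to an even spread than replicate 1.

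**Figure D2:**
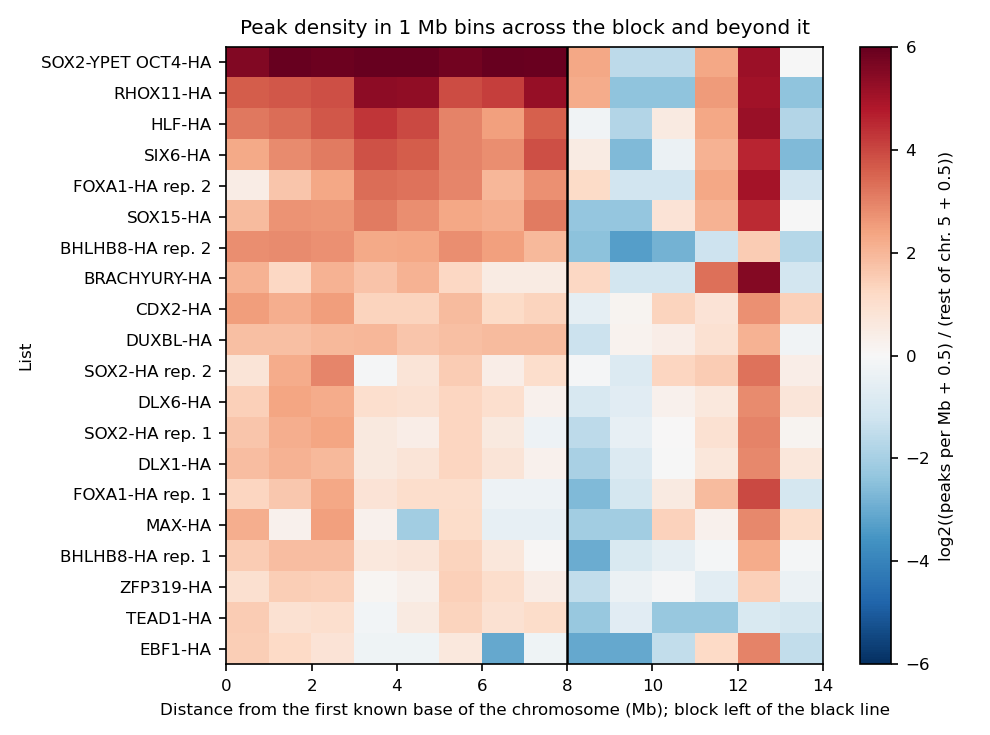
Peak density in 1 Mb bins over the first 14 Mb of known sequence of chromosome 5 (horizontal axis, distance in Mb) for the 20 lists with at least 20 block peaks, ordered by their fold. Colours give log2 of the peaks per Mb (+ 0.5) over the density of that list in the rest of chromosome 5 (+ 0.5), and the black line is the end of the block. Most lists are above their background over the whole block and drop in the bin after it, and a second dense bin at a distance of 12 to 13 Mb holds 706 peaks.

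The block ended sharply. In 100 kb steps from 10.5 Mb, the counts over all lists were 65, 64, 54, 39 and 5, and no peak fell in the 100 kb step from 11 Mb. The last peak inside the block was from BHLHB8-HA replicate 2 (chr5:10957186-10957688) and the first outside was from DLX1-HA (chr5:11130044-11130225). Beyond the edge, 36 and 23 peaks lay in the 100 kb steps from 11.1 and 11.2 Mb, and none between 11.3 and 11.9 Mb. The bin from 11 to 12 Mb thus held 60 peaks, after 537 in the last bin of the block. The other end coincided with the first known base of the chromosome in the assembly, and the first peak, from CDX2-HA, was at chr5:3000721-3000909. A further dense bin followed from 15 to 16 Mb, where 706 peaks lay on 0.605 Mb of known sequence. At 1167 peaks per Mb it ranked 1 among all bins, above every bin of the block. It belongs to the rest of chromosome 5, so it lowers the folds, most in short lists. It held 23 of the 41 NANOG-HA peaks and 10 of the 18 FOXA1_RR-HA peaks there. Without 14 to 16 Mb, the median fold over the 20 lists was 3.68.

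The width of peaks differed between the block and the rest of the chromosome by less than the spread between constructs. The median width was 298 bp in the block and 305 bp in the rest of chromosome 5, and the widths in the block ran from 143 to 2941 bp. For each of the 17 constructs with a list of at least 20 block peaks, with duplicates averaged, the median log2 width in the block was compared with that in the rest of the chromosome, and the mean difference was -0.05 ± 0.15 (SD, n = 17; two-sided sign-flip permutation test, p = 0.164, adjusted p = 0.204 over the 5 measures tested). Of these constructs, 11 were narrower and 6 wider in the block. SOX2-YPET OCT4-HA peaks were wider in the block (median 387 against 331 bp), and those of BHLHB8-HA replicate 1 were narrower (244 against 328 bp), while replicate 2 of the same factor was not (373 against 356.5 bp). The widest peak, BHLHB8-HA replicate 2 at chr5:3341481-3344421, spanned 2941 bp over the start of Cdk6. The test passed the threshold when mean log2 width replaced the median (permutation test, adjusted p = 0.0393) or lists with at least 10 block peaks were admitted (adjusted p = 0.0451).

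Fewer peaks of the block lay at promoters. The share at most 1 kb away from where a protein-coding transcript starts averaged 6.83% in the block and 12.8% in the rest of the chromosome, a difference of -5.98 percentage points ± 11.2 (SD, n = 17; permutation test, adjusted p = 0.0157), and it was lower in 13 of 17 constructs, with a median difference of -1.91. Without RHOX11-HA the mean difference was -3.71 ± 6.45 (SD, n = 16; permutation test, adjusted p = 0.0339). The bases within 1 kb of such a start made up 1.69% of the block and 2.64% of the rest of the chromosome. The widest gap was that of RHOX11-HA, with 2.35% of its block peaks and 44.6% of its other chromosome 5 peaks at promoters, followed by TEAD1-HA with 26.6% and 48.9%. MAX-HA went the other way, with 20.0% and 15.2%. Restricted to peaks of at least 300 bp, 13 constructs remained and the difference no longer passed the threshold (permutation test, adjusted p = 0.115). Over all lists, 241 block peaks (4.797%) were at promoters, 150 (2.99%) in other exons, 1874 (37.3%) in introns and 2759 (54.9%) outside protein-coding genes. The genes themselves cover 43.2% of the block, and the median distance of a block peak to the nearest coding start was 78.9 kb, against 19.01 kb in the rest of the chromosome.

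The bases under the peaks of the block were poorer in G and C. The GC content of the central 200 bp averaged 44.5% in the block and 47.9% in the rest of the chromosome, lower in 14 of 17 constructs, by 3.44 percentage points ± 3.44 (SD, n = 17; permutation test, adjusted p = 0.00225). The block as a whole had 39.5% GC and the rest of the chromosome 42.7%, so on average the peaks were richer in G and C than their surroundings in both regions. TEAD1-HA showed the widest gap (49.8 against 60.1%), and CDX2-HA, whose consensus is AT-rich, was low in both (35.4 and 36.2%). SIX6-HA, SOX15-HA and SOX2-YPET OCT4-HA were the 3 constructs that were not lower. Soft-masked repeat sequence made up 39.7% of the block and 33.2% of the rest of the chromosome. Its mean share in the peak centres was 30.9 against 20.1% over the 20 lists, and it was higher in the block in 18 of them, for example in BHLHB8-HA replicate 2 (40.3 against 13.0%) and RHOX11-HA (39.3 against 15.8%). The authors kept uniquely aligned reads, and how this bears on repeats in the block was not tested.

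The AP-1 heptamer was less frequent under the peaks of the block. It occurred in the central 200 bp of 11.2% of block peaks and 16.0% of the other chromosome 5 peaks (means over 17 constructs), a difference of -4.78 percentage points ± 4.48 (SD, n = 17; permutation test, adjusted p = 0.0014), and it was lower in 15 of 17 constructs. Among all adjoining 200 bp windows, 2.98% held the heptamer in the block and 3.19% in the rest of the chromosome. SIX6-HA had the widest gap, 8.82 against 25.5%, and SOX15-HA followed with 13.9 against 23.8%. In SOX2-HA the heptamer was frequent in both regions, at 24.6 and 26.7% on average over its duplicates. EBF1-HA, with 21.4 against 18.6%, and SOX2-YPET OCT4-HA, with 3.32 against 2.84%, were the exceptions. The FOXA1-HA duplicates differed, with 28.8 against 23.0% in replicate 1 and 8.16 against 24.4% in replicate 2.

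The share of peaks with the consensus of their own factor was lower in the block in 10 constructs and higher in 4. The median difference was -2.42 percentage points, and the mean difference did not pass the threshold. Over the 15 constructs with a searched consensus it averaged 15.6% in the block and 16.9% in the rest of the chromosome, a difference of -1.30 percentage points ± 9.45 (SD, n = 15; permutation test, adjusted p = 0.61). The SD over constructs was wide because a few factors differed in opposite directions. TAATTA, the homeodomain core, was under 33.2% of DLX6-HA block peaks (exact interval 26.5 to 40.3) against 10.9% of its other chromosome 5 peaks (9.15 to 12.8). DLX1-HA showed the same direction with 19.5% (14.1 to 25.8) against 7.26% (5.89 to 8.82). TAATTA occurred in 8.82% of all 200 bp windows of the block and in 6.92% of those in the rest of the chromosome, a smaller gap than that of the peaks of either factor. The peak centres of both factors were also lower in GC content in the block (DLX6-HA 37.6 against 45.1%, DLX1-HA 40.8 against 47.9%). Windows matched for GC content were not compared.

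BHLHB8-HA went the other way. The E-box CAGCTG was under 26.04% (21.6 to 30.9) and 20.3% (17.98 to 22.7) of its block peaks in replicates 1 and 2, against 37.7% (35.9 to 39.5) and 36.4% (34.8 to 38.1) elsewhere on the chromosome, and both duplicates were lower. CAGCTG was in 5.79% of windows of the block and 7.85% of those elsewhere. The forkhead form was under 19.2% (9.63 to 32.5) and 6.12% (1.28 to 16.9) of FOXA1-HA block peaks, against 35.2% (30.4 to 40.4) and 24.4% (15.8 to 34.9) elsewhere, again lower in both duplicates, on 52 and 49 peaks. CDX2-HA had TTTATNG under 49.1% (43.5 to 54.7) of its block peaks and 52.8% (50.2 to 55.4) of the others, the highest shares of any construct in both regions. ACAATG was under 30.6% (24.4 to 37.3) and 38.6% (26.0 to 52.4) of the SOX2-HA block peaks, and the duplicates went in opposite directions from the 26.4 and 42.2% elsewhere. In SOX2-YPET OCT4-HA the octamer form ATGCAAAT or ATGCTAAT was rare everywhere, under 1.33% (0.639 to 2.43) of block peaks and 1.42% (0.172 to 5.03) of others. It occurred in 2.85% of all windows of the block.

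**Figure D3:**
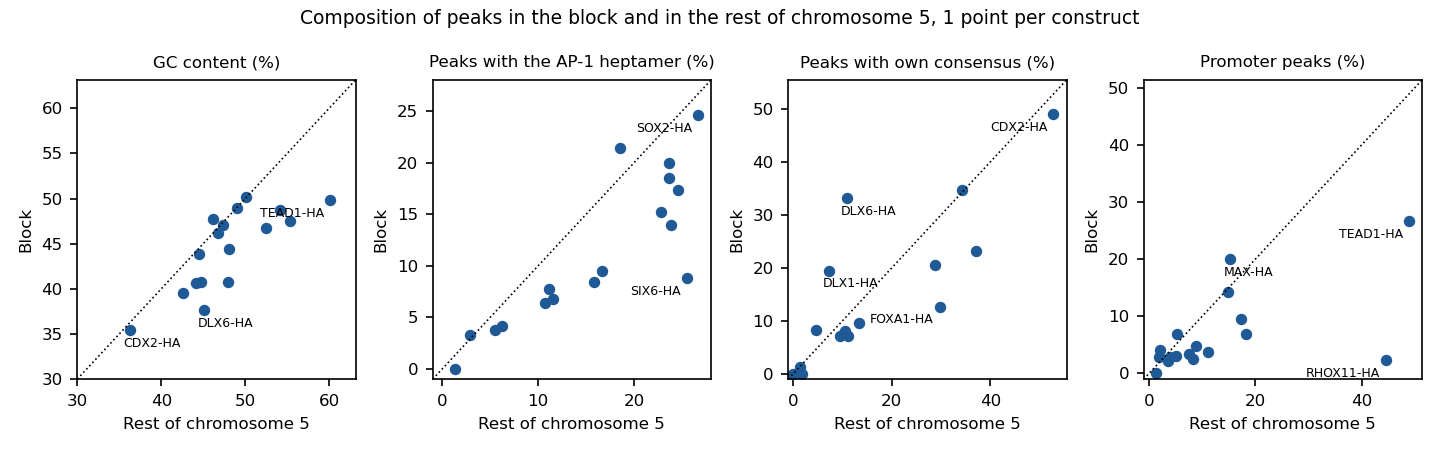
GC content of the central 200 bp, share of peaks with the AP-1 heptamer, share with the consensus of the construct itself and share at promoters (all in %), in the rest of chromosome 5 (horizontal axes) and in the block (vertical axes). Each point is a construct with at least 20 block peaks in a list (duplicates averaged; 17 constructs, 15 for own consensus) and dotted lines mark equal values. GC content, AP-1 and promoter shares lie mostly below the line, and DLX6-HA (33.2 against 10.9%) lies furthest above it for its own consensus.

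Peaks in the block were closely packed, and many were shared. Merging touching peaks gave 2745 sites in the block (343 per Mb) and 9517 in the rest of the chromosome (68.0 per Mb). The sites covered 13.9% of the bases of the block against 2.71%, with a median gap between neighbours of 2110 against 7171 bp. Sites with a single construct made up 63.9% in the block and 76.2% elsewhere, and those with 2 to 4 constructs 31.2 and 17.7%. Sites with 5 to 9 constructs were 4.34 and 5.40%, and those with 10 or more were 16 sites (0.583%) in the block and 67 (0.704%) elsewhere. Over all lists, the share that was larger in the block was therefore that of sites with 2 to 4 constructs, and not that of the most widely shared sites. In the block, 535 BHLHB8-HA replicate 2 peaks overlapped a SOX2-YPET OCT4-HA peak, against 45 in the rest of the chromosome. Whether the larger share remains without either of these 2 lists was not tested. BHLHB8-HA alone accounted for 589 of the 1754 single-construct sites, followed by CDX2-HA with 223, DUXBL-HA with 199 and RHOX11-HA with 182.

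The peaks that overlapped a peak of another construct were 3082 of 4837 (63.7%, exact interval 62.3 to 65.1) in the block, after merging duplicate lists, and 54.3% (53.5 to 55.1) in the rest of chromosome 5. This direction rested on each of 2 lists. Without BHLHB8-HA replicate 2 the shares were 55.7% in the block and 58.8% elsewhere, and without SOX2-YPET OCT4-HA they were 52.9 and 54.3%, so in both cases the order turned. SOX2-YPET OCT4-HA itself was shared at 79.5% in the block and 40.4% elsewhere, and BHLHB8-HA at 56.8 and 39.9%. RHOX11-HA (64.4 against 84.8%), DLX6-HA (69.5 against 89.0%), DLX1-HA (80.0 against 90.5%), SOX2-HA (67.9 against 79.0%) and HLF-HA (78.7 against 89.4%) were shared less in the block. CDX2-HA (30.7 against 23.2%), DUXBL-HA (36.0 against 22.6%), ZFP319-HA (37.7 against 26.6%), TEAD1-HA (48.6 against 32.0%) and MAX-HA (86.7 against 73.7%) were shared more in the block, and the first 3 of these were the least shared constructs there. As the density of all lists differs between the regions, these shares are given without a test.

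The leading pair was BHLHB8-HA replicate 2 with SOX2-YPET OCT4-HA. In the block, 536 of the 753 SOX2-YPET OCT4-HA peaks (71.2%) overlapped a BHLHB8-HA replicate 2 peak, against 45 of 141 (31.9%) in the rest of the chromosome. In the other direction, 535 of 1144 BHLHB8-HA replicate 2 peaks (46.8%) overlapped a SOX2-YPET OCT4-HA peak, against 1.33% elsewhere. Of the 753 SOX2-YPET OCT4-HA peaks, 38 (5.05%) met a peak of BHLHB8-HA replicate 1, against 12 of 141 (8.51%) in the rest of the chromosome. Replicate 1 had fewer block peaks than replicate 2. Between the BHLHB8-HA duplicates, 140 of the 361 block peaks of replicate 1 (38.8%) met a peak of replicate 2, against 53.7% in the rest of the chromosome, and 131 of the 1144 peaks of replicate 2 (11.5%) met a peak of replicate 1, against 41.8%. The overlap of the duplicates was thus lower in the block as a share of either list, which differ in size.

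**Figure D4:**
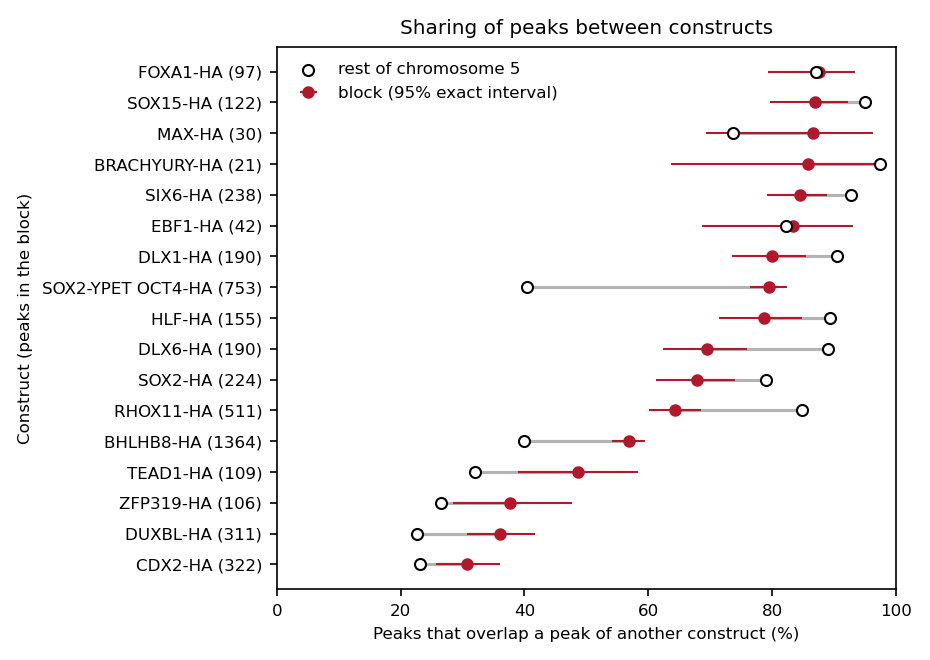
Share of peaks that overlap a peak of another construct (%), for the 17 constructs with at least 20 block peaks in a list (duplicate lists merged). Filled points are the block with 95% exact intervals (counting error only) and open points are the rest of chromosome 5. SOX2-YPET OCT4-HA (79.5 against 40.4%) and BHLHB8-HA (56.8 against 39.9%) are higher in the block, and RHOX11-HA (64.4 against 84.8%) and DLX6-HA (69.5 against 89.0%) are lower.

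The 2 most widely shared sites each had peaks of 15 constructs. The first (chr5:3988682-3991247) lay over an exon of the pseudogene Wdr46-ps within Akap9, and the second (chr5:6192146-6193465) lay 443480 bp from the nearest coding start, that of Steap1. The next 3 sites had 12 constructs each, at chr5:4788191-4790795 in an intron of Gm42744, at chr5:5174882-5175962 across an exon of the non-coding gene Gm10484 within Cdk14, and at chr5:7622898-7623591, 278489 bp from the start of Zfp804b. None of these 5 lay at a promoter of a protein-coding gene. BHLHB8-HA, DLX1-HA, SIX6-HA and SOX2-HA had peaks at all 5.

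The protein-coding genes of the block are 42, and nearly all had a peak at their start. A promoter peak was present at 39 of 42 genes (92.9%), against 832 of 1215 (68.5%) in the rest of chromosome 5, and the median gene had promoter peaks of 4.5 constructs in the block and of 1 elsewhere. These counts follow the density that chose the block and are given without a test. The genes without a promoter peak were Mterf1b, Gm8857 and Gm8871. Counts over whole genes, which include 1 kb before the start, depend on gene length, so they are compared between genes per 10 kb.

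Among the cell cycle genes, Cdk14, a cyclin-dependent kinase gene of 617 kb (chr5:4803391-5420312, minus strand), held 494 peaks of 20 constructs, or 7.99 per 10 kb. Its promoters had peaks of 11 constructs, the most of any gene in the block. Cdk6, the G1 kinase that pairs with D-type cyclins (chr5:3341485-3531008, plus strand), held 125 peaks of 17 constructs, or 6.56 per 10 kb, with 7 constructs at its promoters. Dbf4, the regulatory subunit of the kinase that fires replication origins, and Dmtf1, a cyclin D-binding activator of Arf, had 14 and 32 peaks of 7 and 9 constructs, with 4 and 5 constructs at their promoters. BHLHB8-HA replicates 1 and 2 and TEAD1-HA each had a promoter peak at all 4 genes. Each of these lists also had promoter peaks at most genes of the block, so this was not particular to the 4 genes. In the block, 92.9% of genes had a promoter peak of some construct and the median was 4.5 constructs.

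The ABC transporter genes lie next to each other. Abcb1a and Abcb1b encode the mouse P-glycoproteins, which export drugs, and Abcb4 encodes the phosphatidylcholine translocator of bile. Abcb1a held 57 peaks of 16 constructs (6.37 per 10 kb), Abcb1b 40 of 11 (5.78 per 10 kb) and Abcb4 51 of 15 (7.67 per 10 kb). At the promoters, 8, 8 and 3 constructs had peaks. The 8 at Abcb1a included both FOXA1 mutants beside FOXA1-HA replicate 2, and the mutants had only 6 and 11 peaks in the whole block. The 8 at Abcb1b included the homeobox factors CDX2-HA, DLX1-HA, DUXBL-HA and RHOX11-HA, and no FOXA1 construct.

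The STEAP genes belong to a family of membrane proteins that includes metalloreductases of iron and copper. Steap1 and Steap2 had 11.4 and 12.4 peaks per 10 kb, and Steap4, which lies apart from them, had 5.27. Steap1 had promoter peaks of 10 constructs, Steap2 of 6 and Steap4 of 2. The sterol, peroxisome and carrier genes lay closer together in the number of constructs at their promoters. Cyp51, the sterol demethylase of cholesterol synthesis, had promoter peaks of 8 constructs, Slc25a40, a mitochondrial carrier, of 5, and Crot, a peroxisomal carnitine acyltransferase, of 4.

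Among the surface and junction genes, Fzd1, a short gene of 4.197 kb for a Wnt receptor, had 17.3 peaks per 10 kb and promoter peaks of 7 constructs. Cldn12, a claudin, had 13.2 peaks per 10 kb, Krit1, a regulator of endothelial junctions, had 7.61, and Adam22, a catalytically inactive ADAM protein of synapses, had 5.05, with 6, 7 and 7 constructs at their promoters. Akap9, a scaffold that anchors protein kinase A, Ankib1, an ubiquitin ligase, and Sri, the calcium-binding protein sorcin, had promoter peaks of 4, 6 and 5 constructs.

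The neuronal genes are long and were covered over their introns. Zfp804b (576 kb) held 351 peaks of 19 constructs (6.09 per 10 kb), of which 86 were from RHOX11-HA, and 6 promoter peaks. Grm3, a metabotropic glutamate receptor gene of 240 kb, held 94 peaks of 13 constructs, or 3.91 per 10 kb, and promoter peaks of 3 constructs. Ranked by constructs, the 10 leading genes were Cdk14 (20), Zfp804b (19), Akap9 (18), Rundc3b (18), Cdk6 (17), Cfap69 (16), Abcb1a (16), Adam22 (15), Abcb4 (15) and Steap2 (15). Of these, Steap2 had the highest count per length (12.4 peaks per 10 kb) and Adam22 the lowest (5.05).

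**Figure D5:**
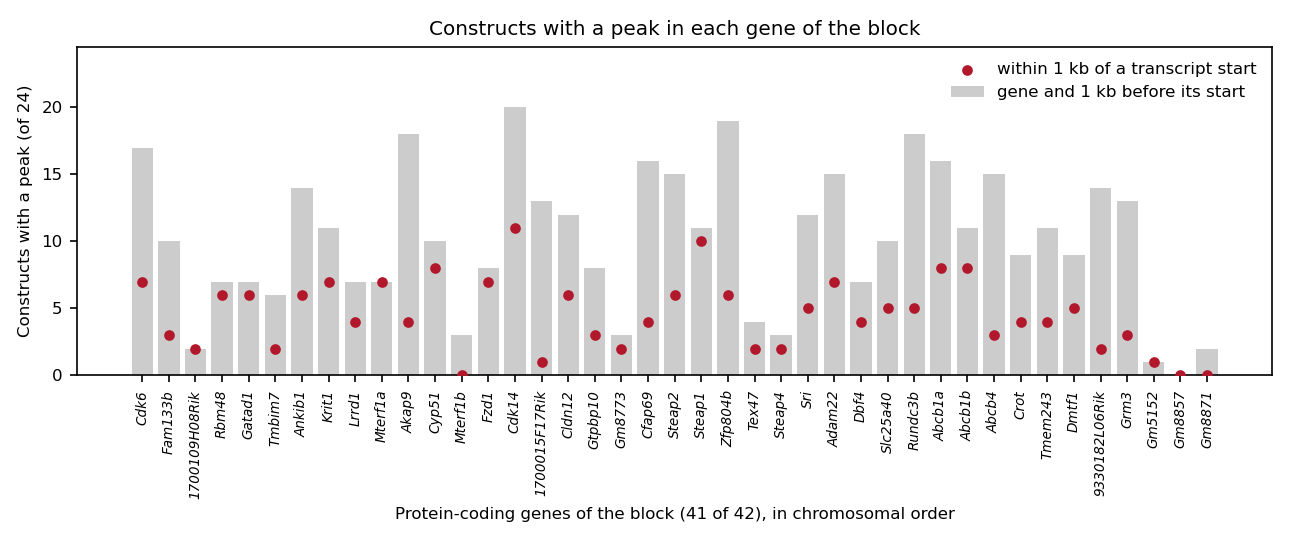
Number of constructs (of 24) with a peak in each of 41 of the 42 protein-coding genes of the block or in the 1 kb before its start (grey bars), and number with a peak within 1 kb of a coding transcript start (red points), in chromosomal order. Cdk14 leads both counts (20 and 11), Steap1 has 10 constructs at its promoter, and Mterf1b, Gm8857 and Gm8871 have none.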

How the data were processed

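Peaks were called by the authors in each sample separately. Paired-end reads of 37 nt were aligned to mm10 with STAR 2.5.3a, unique alignments were kept, duplicates were removed with Picard, and MACS2 2.1.1.20160309 was run in paired-end mode, after which peaks overlapping input peaks or blacklisted regions were discarded. The deposited files give only where each peak begins and ends (chromosome and positions in bp), without signal or counts, and the input sample was not used here. Groups and replicate numbers came from the labels. The members of the block, the gene groups and the measures were chosen with earlier results of these data known.

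Positions were read on GRCm38 with GENCODE vM21, and all 304922 peaks lay within its chromosomes. Printed coordinates count from 1. Density was divided by known bases. For 17 constructs with a list of at least 20 block peaks, 5 measures were compared between the block and the rest of chromosome 5 with a two-sided sign-flip permutation test over constructs (100000 resamples or, where fewer, all sign combinations), adjusted by the Benjamini-Hochberg method. No sample was replicated for most constructs, so p-values measure the spread between constructs. The tests treat constructs as independent units, but some constructs shared many peaks. In the rest of chromosome 5, 84.7% of SOX15-HA peaks overlapped a SOX2-HA replicate 1 peak, while 0.319% of TEAD1-HA peaks overlapped a CDX2-HA peak. In the block, 71.2% of SOX2-YPET OCT4-HA peaks overlapped a BHLHB8-HA replicate 2 peak. The p-values leave this sharing out and may be too small. Consensus sequences were searched on both strands in the central 200 bp, as spelled out in the text, and also CACGTG (MAX-HA), ACAATG (SOX15-HA), CATTCC (TEAD1-HA), TGATAC (SIX6-HA), TCACACCT (BRACHYURY-HA), TAATGG (NANOG-HA) and the EBF1 and DUXBL palindromes. Overlap meant at least 1 bp. Genes named in the text were the fixed groups, the 10 with peaks of most constructs, the 5 sites with most constructs, the widest peak and the peaks at the edges. The values of 1 gene are not reported here. Python 3.11.15, NumPy 2.4.6, pandas 2.3.3, SciPy 1.17.1 and Matplotlib 3.10.9 were used, and the scripts were tested on simulated data.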

Additional observations from a re-analysis of the deposited data

How the results depend on the processing

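Of 63 alternative values for 8 results, 54 neither turned nor crossed the threshold, or moved by less than the error. The lower AP-1 share and the lower GC content of block peaks passed the threshold in every alternative run for them. With peaks of at least 300 bp, the width difference turned to 0.0268 (log2) and the own consensus difference to 2.00 percentage points, neither past the threshold in either setting, and the promoter difference was -7.38 percentage points with an adjusted p of 0.115 (permutation test). The width difference passed the threshold with lists of at least 10 block peaks (-0.0799) and with mean log2 width (-0.0570). Sharing in the block was 47.8% with a reciprocal overlap of 50% and 52.9% without SOX2-YPET OCT4-HA, and 55.0 to 63.0% when replicates were left out. Omission of 14 to 16 Mb from the rest of the chromosome, omission of promoter peaks, omission of BHLHB8-HA replicate 2, of SOX2-YPET OCT4-HA, of RHOX11-HA (promoter share) or of the 3 lists with most block peaks were chosen after seeing the data. The cause of these changes was not tested. No paired analysis was possible by replicate number, because the replicate numbers pair no samples between the regions compared. Both regions come from the same list. The tests themselves already take the difference between the regions within each construct, and in that sense they are paired. The median density fold ran from 2.87 to 3.83 when replicates were left out. Peak lists carry no depth, so a region without a peak may be below detection.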
